A study of Mus musculus with 3 samples.

Results

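The cholesterol genes described here are 29 listed genes that make, sense, export, store or take up sterols, out of 55536 Ensembl genes in the deposited gene tables. They were taken by symbol from a list that states no measured value as its rule, and all 29 were found. By role they were 5 genes of sterol sensing, 6 enzymes of the mevalonate part of synthesis, 8 enzymes of the sterol branch, 3 nuclear receptors, 5 genes of efflux and lipoprotein handling, and 2 genes of oxysterol and ester formation.

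The study sequenced ribosomal RNA-depleted total RNA from the cytosolic fraction of mouse bone marrow-derived macrophages, phagocytes grown in culture from marrow cells. All 3 libraries belonged to 1 group: C57BL/6J macrophages with a first dose of Lipid A (100 ng/ml over 12 h), then 12 h of washout, then a second dose at the same 100 ng/ml lasting 50 min. Lipid A, the membrane anchor of bacterial lipopolysaccharide, is sensed by Toll-like receptor 4. No untreated or singly treated library was analysed here, so levels and their spread between biological replicates 1, 2 and 3 are described, and no response to Lipid A can be read from them. The replicates carried 1 strain-level donor entry, age and sex were not collected, and nothing in the labels says whether the cultures came from separate mice, so a p-value measures only the spread between these libraries. Libraries were made from 1 µg of RNA and cover fragments of 250 to 400 bases.

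Cells make cholesterol from acetyl-CoA through mevalonate, isoprenoid units, squalene and lanosterol. SREBP transcription factors drive the genes of this path: SCAP carries them from the endoplasmic reticulum to the Golgi when sterols are low, and INSIG proteins hold them back when sterols are high. Oxysterols and late sterol intermediates activate the liver X receptors, which raise the efflux pumps ABCA1 and ABCG1 and apolipoprotein E. Macrophages take in much cholesterol with lipoproteins and dead cells, and they store the excess as esters in droplets or pass it to lipoproteins outside.

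Depth ranged from 47972062 to 54409435.8 expected counts over genes, at which a count of 0 allows at most 0.0625 CPM (counts per 1000000, here 3 counts in the shallowest library, for counting error only). All 10 macrophage markers checked reached a TPM (transcripts per 1000000, a level corrected for transcript length) of at least 1 in each library, with a median of 442 ± 97.4 (SD, n = 3). All 5 adipocyte and all 5 hepatocyte markers were listed at 0 in the gene tables. That bears on Lpl, Pparg and Apoe, which those cell types also express. No lymphoid or fibroblast marker reached 1 TPM in every library. Of 5 neutrophil markers, S100a8 (3.80 TPM) and S100a9 (5.41 TPM) did. Levels of different genes are compared in TPM below. Because TPM is a share of all indexed features, short RNAs included, the median over expressed protein-coding genes itself moved, at 9.78, 7.29 and 10.3 TPM in replicates 1, 2 and 3. One gene is therefore compared between replicates in CPM, with library sizes scaled by the trimmed mean of M values (TMM).

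Of the 29 cholesterol genes, 28 had at least 1 TPM in every replicate, against a background of 41.1% of 22028 protein-coding genes, and only Ch25h did not. The groups differed in level. Efflux and lipoprotein genes had a median of 80.5 ± 14.6 TPM (SD over 3 replicates). Sterol sensing genes had a median of 15.8 ± 2.29 TPM, the 3 nuclear receptors 19.0 ± 3.63 TPM, the mevalonate enzymes 10.02 ± 2.57 TPM and the sterol branch enzymes 9.75 ± 2.56 TPM. Oxysterol and ester formation had 2 unlike genes, Soat1 at 162 TPM and Ch25h at 0.757 TPM in the mean. The 9059 expressed protein-coding genes had a median of 9.12 ± 1.61 TPM. The medians of both enzyme groups sat within the replicate spread of that middle, and the median of the efflux genes far above it. Single synthesis enzymes ran from 3.51 TPM (Lss) to 38.6 TPM (Msmo1) in the mean.

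**Figure D1:**
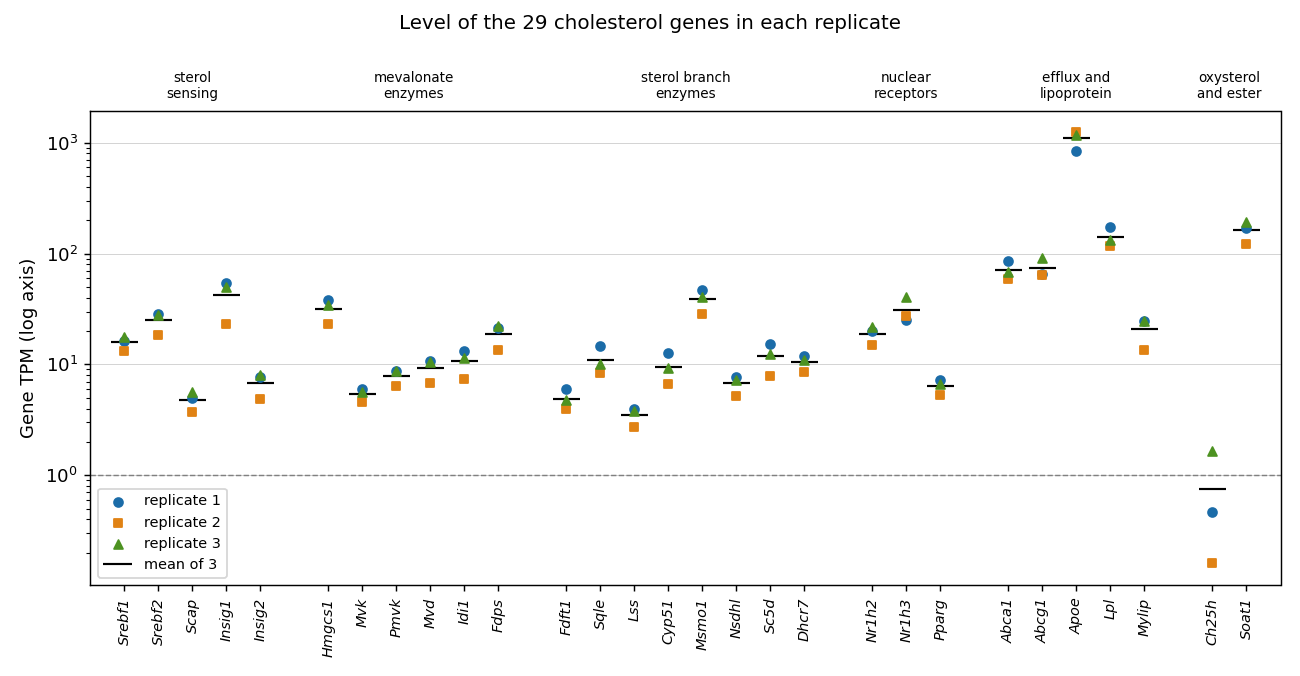
TPM of the 29 cholesterol genes (vertical log axis) in replicates 1, 2 and 3 (points), with the mean of the 3 as a line, grouped by role; the dashed line marks 1 TPM. Apoe, Lpl, Soat1, Abca1 and Abcg1 stand above every synthesis enzyme, and Ch25h lies below the other 28 genes.

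The counts of most members differed between the replicates by more than counting error. By a chi-square test of Poisson heterogeneity with Benjamini-Hochberg adjustment over all 13827 genes tested, 25 of 29 members passed an adjusted p of 0.05. At this depth 70% of all tested genes did so too, so the members' count lies near the background. With a ratio of highest to lowest CPM of at least 1.5 in addition, 5 of 29 members passed (Insig1, Sqle, Nr1h3, Apoe and Ch25h). The background was 23.6% of all tested genes and 10.6% of 9057 tested protein-coding genes with at least 1 TPM in each replicate. Leaving out replicate 1 left Insig1 and Ch25h, beside 14.1% of all tested genes. Without replicate 2 it was Sqle, Nr1h3 and Ch25h (16% of all tested genes). Without replicate 3 it was Insig1, Apoe and Ch25h (13.3%).

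**Figure D2:**
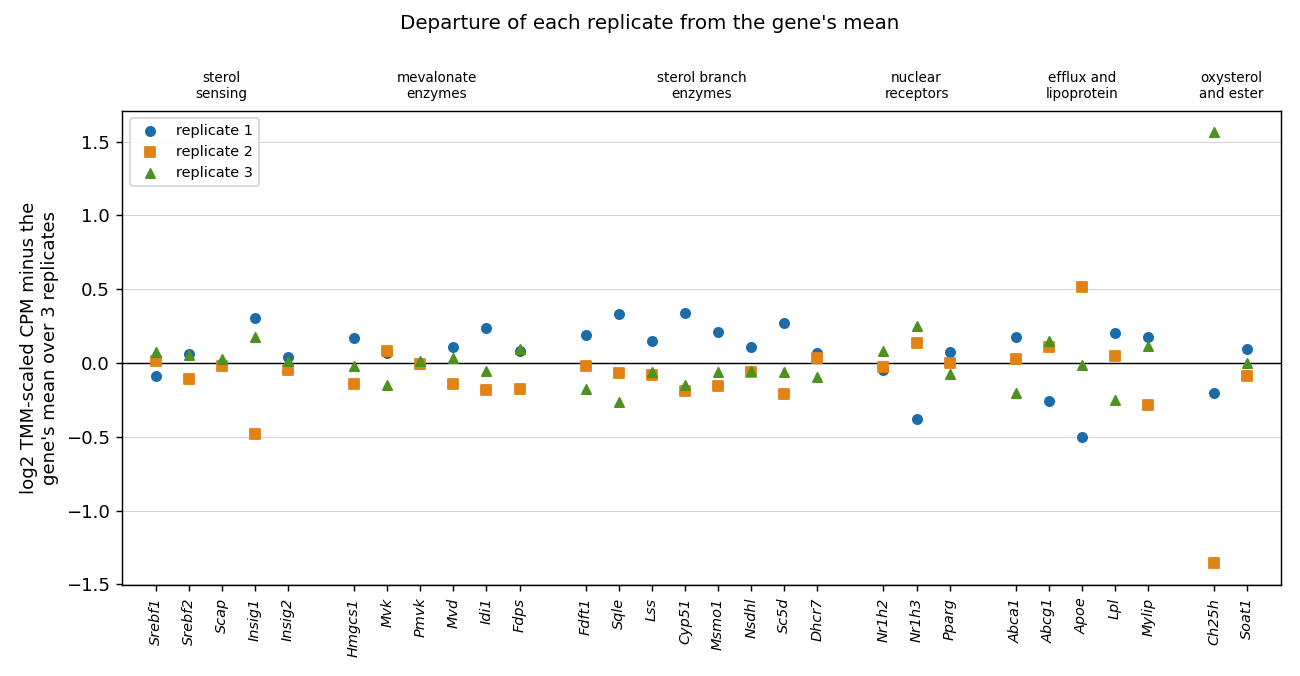
Log2 TMM-scaled CPM of each replicate minus the gene's own mean over the 3 replicates (vertical axis), for the 29 cholesterol genes grouped by role. The 8 sterol branch enzymes are all highest in replicate 1. Insig1 and Mylip are among 16 genes lowest in replicate 2. Nr1h3, Abcg1 and Apoe are among 6 genes lowest in replicate 1, and Ch25h has the widest spread.

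Of the sterol sensing genes, Insig1 was the highest and the most variable. Insig1 (chr5:28071363-28078662, mm10), itself a target of SREBP and an anchor that retains SCAP in the endoplasmic reticulum, had 54.1, 23.2 and 49.5 TPM in replicates 1, 2 and 3. In CPM it had 183, 106 and 167, so replicate 2 was low and the other two were close, with a highest to lowest ratio of 1.72. Its relative Insig2, which retains SCAP as well and is not itself driven by SREBP, had 7.72, 4.89 and 7.95 TPM. Insig2 gave 19.4, 18.3 and 19.1 CPM and did not pass the heterogeneity test (adjusted p = 0.457). On the log2(TPM + 1) scale Insig1 exceeded Insig2 by 2.66, 2.04 and 2.50 in the 3 replicates (mean 2.40 ± 0.32 SD). It was higher in 3 of 3 replicates, and the exact two-sided sign-flip permutation test gave p = 0.25, the smallest it allows with 3 replicates (0.292 after adjustment over 7 pairs).

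Scap, the sterol sensor that escorts SREBP, was low and even: 4.96, 3.71 and 5.63 TPM, and 27.2, 26.9 and 27.8 CPM (adjusted p = 0.653 in the heterogeneity test). Srebf2 (chr15:82147181-82205379) encodes SREBP-2, the factor most tied to cholesterol synthesis. It had 28.3, 18.4 and 28.0 TPM, and 164, 146 and 163 CPM, a ratio of 1.12. Srebf1 (chr11:60199089-60222581), whose products lean to fatty acid synthesis, had 16.4, 13.3 and 17.8 TPM, and 80.9, 86.7 and 90.4 CPM, also a ratio of 1.12. Srebf2 lay above Srebf1 in 3 of 3 replicates, by 0.61 ± 0.16 (SD) in log2(TPM + 1) units (two-sided exact sign-flip permutation p = 0.25, adjusted 0.292). The microRNA hairpin Mir33, which lies within Srebf2 and whose product is known to lower ABCA1, was listed at 0 counts in the 3 libraries. With fragments of 250 to 400 bases, whether it was expressed was not tested.

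Srebf1 makes different proteins from different first exons, and transcripts annotated with each start held a share of its TPM. The long SREBP-1a form carries a stronger activation domain, and the SREBP-1c form, the main one in liver, a short one. The starts of the coding sequences of the transcripts Srebf1-201 (first base of the transcript at chr11 position 60220604, minus strand) and Srebf1-207 (position 60210465) are shown because they tell the forms apart. They were read from the GENCODE M21 transcripts. Lower case marks the bases found in that transcript alone, and capitals the first bases that both share.
Srebf1-201: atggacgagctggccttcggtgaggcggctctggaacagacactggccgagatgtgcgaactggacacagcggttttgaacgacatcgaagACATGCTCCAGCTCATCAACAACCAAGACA
Srebf1-207: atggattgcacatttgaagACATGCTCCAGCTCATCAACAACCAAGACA
The 91 bases before the shared part are the 1a type of start, in a coding sequence of 1134 codons. The 19 bases of Srebf1-207 are the 1c type, in 1022 codons. The coding sequences, of 3402 and 3066 bases, also differ beyond their starts. Reads over the first exons alone were not counted, so use of each start was not measured directly.

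Srebf1-201, the 1a-type transcript, held 63.9, 66.1 and 72.5% of the gene's TPM in replicates 1, 2 and 3 in the RSEM-layout transcript table. Srebf1-207, the 1c type, held 13.3, 11.7 and 13.8%. The ranges did not overlap in this table, nor in the second, kallisto-layout, table of the same libraries. There Srebf1-201 held 42.7, 52.6 and 59.2% and Srebf1-207 17.7, 22.7 and 23.5%. So the order was the same and the gap smaller. Srebf1-203, which begins inside the shared coding part, held 10.3 ± 1.11% (SD, n = 3) and 5.11 ± 0.26% in the 2 tables. The non-coding Srebf1-204 of 367 bases held 5.84 ± 1.54% and 16.6 ± 4.80%. In the RSEM-layout table this last share rests on 12.0, 13.8 and 8.63 reads, so a share of TPM on so short a transcript is poorly measured.

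**Figure D3:**
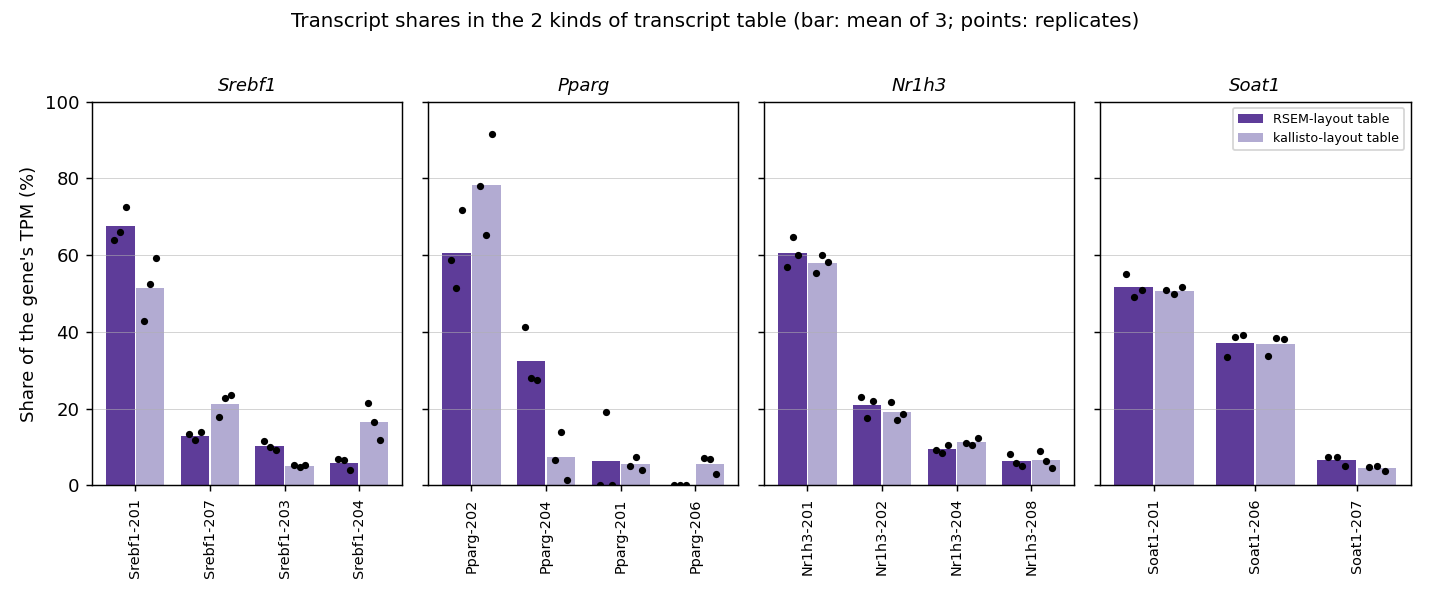
Share of the gene's TPM (vertical axis, %) on each transcript of Srebf1, Pparg, Nr1h3 and Soat1 with a mean share of at least 5% in either transcript table; bars are means of 3 replicates and points are the replicates. The leading transcript is the same in both tables for all 4 genes, whereas Srebf1-204 and Pparg-204 differ strongly between the tables.

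The mevalonate enzymes ranged from Hmgcs1 down to Mvk. Hmgcs1 (chr13:119690379-119708260), which makes HMG-CoA, had 37.7, 23.1 and 34.2 TPM, and 163, 131 and 143 CPM in replicates 1, 2 and 3. Replicate 1 was the highest and replicate 2 the lowest, with a ratio of 1.24. Fdps, which makes farnesyl diphosphate, had 21.1, 13.5 and 22.1 TPM. Idi1, which interconverts the isoprenoid building blocks, had 13.3, 7.44 and 11.4 TPM, and 51.8, 38.8 and 42.3 CPM, the widest ratio of the group at 1.33. The remaining 3, which phosphorylate mevalonate in turn and then decarboxylate it, were lower. Mvk had 6.04, 4.54 and 5.58 TPM and Pmvk 8.66, 6.38 and 8.78 TPM. Mvd had 10.7, 6.81 and 10.5 TPM. Of the 6 enzymes, Pmvk alone did not pass the heterogeneity test, at 11.7, 11.7 and 11.9 CPM (adjusted p = 0.958).

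The sterol branch was led by Msmo1, the methyl sterol oxidase, with 47.0, 28.2 and 40.5 TPM. Summed over all transcripts of the gene, its level exceeded that of each other synthesis enzyme in every replicate. Transcripts not annotated as protein-coding held 35.8 ± 2.16% of the TPM of Msmo1 and 0.571 ± 0.429% of that of Hmgcs1 (SD, n = 3). The order therefore need not hold for protein-coding transcripts alone. Sc5d, the sterol desaturase, had 15.3, 7.84 and 12.3 TPM, and Dhcr7, which takes 7-dehydrocholesterol to cholesterol, had 11.9, 8.54 and 10.9 TPM. Sqle, which epoxidises squalene and is a control point of the path, had 14.6, 8.35 and 10.1 TPM. In CPM, Sqle had 52.8, 39.9 and 34.9, a ratio of 1.51. Cyp51, the lanosterol demethylase, had 12.8, 6.59 and 9.35 TPM. Its 66.5, 45.9 and 47.4 CPM put replicate 1 apart from the other two (ratio 1.45). Nsdhl, another enzyme of demethylation, had 7.77, 5.23 and 7.18 TPM. Fdft1, the squalene synthase, had 5.97, 3.97 and 4.80 TPM. Lss, which closes the rings of lanosterol, was the lowest of the synthesis enzymes among the members at 3.99, 2.75 and 3.78 TPM. Fdft1 overlaps the cathepsin gene Ctsb on the opposite strand by 774 bases, and Mvd overlaps Gm20388 by 9822 bases. How the counting treated strand is not given in the sources used here. Ctsb had 612200 to 740200 counts against 926.73 to 1168.6 for Fdft1, so the values of Fdft1 and Mvd are uncertain. The same limit applies, over shorter overlaps on the opposite strand, to Cyp51 with Akap9 (166 bases) and Srebf1 with Rai1 (109 bases).

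The synthesis enzymes leaned to replicate 1. In CPM, 11 of 14 were highest in replicate 1, which is where 34.4% of all tested genes and 25.9% of tested protein-coding genes with at least 1 TPM were highest. All 8 sterol branch enzymes were among the 11. Pmvk and Fdps, 2 of 14, were highest in replicate 3 (34.2% of all tested genes), and Mvk was highest in replicate 2. Pmvk alone, 1 of 14, was lowest in replicate 1 (32.2% of all tested genes). Replicate 2 was the lowest for 9 of 14, beside 4278 of 13827 tested genes. The differences were small: the median ratio of highest to lowest was 1.22 over the 14 enzymes, against 1.19 over expressed protein-coding genes. The count in replicate 1 was 14 of 14 when library sizes were plain totals, where 48.6% of all tested genes were highest in replicate 1, and 14 of 14 with TPM values recomputed over protein-coding genes, where 46.3% were. Counting the enzymes in replicate 1 was chosen after their values were seen.

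Other RNAs also differed between the replicates. The nuclear-retained RNAs Malat1 and Neat1 were highest in replicate 1 and lowest in replicate 3. Malat1 had 6066, 3077 and 1408 CPM and Neat1 had 647, 247 and 127 CPM. The share of reads assigned to retained-intron transcripts of the synthesis enzymes was 1.30, 1.04 and 0.584% in replicates 1, 2 and 3. Of the 10 macrophage markers, 8 were lowest in replicate 1, beside 38.7% of the expressed protein-coding genes. With plain totals as library sizes that share was 20.7%, and the markers were not counted again. The part of these RNAs in the levels of the synthesis enzymes was not tested.

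At least 1 promoter window of each enzyme searched held a shared short element. RefSeq promoter windows of 300 bases (250 before to 50 after a start site, build GRCm38.p6) were at hand for 24 of 29 members, 11 of them synthesis enzymes. The letters searched, on both strands, were CCAAT (the box bound by NF-Y, a known partner of SREBP), GGGCGG (a GC box, bound by Sp1), and TCACCCCAC or the looser TCACNCCAC (the core of a sterol regulatory element, the second containing the first). A direct repeat of AGGTCA spaced by 4 bases, the form bound by liver X receptors, was searched with up to 2 mismatches. A match is only a match of letters. CCAAT stood in at least 1 window of 11 of 11 enzymes, of 41.1% of all 27025 genes with an entry, and of 43% of 7264 expressed protein-coding genes. At least 2 CCAAT boxes in 1 window were found for 7 of 11 enzymes, against 17.2% of the expressed protein-coding genes. Pmvk held its single box in 1 of its 2 windows, and Dhcr7 held its pair in 1 of its 3 windows. Those windows (chr3:89454291-89454590 and chr7:143829964-143830263) do not hold the start of the gene's leading transcript. Pmvk-201 starts at position 89459118 and Dhcr7-202 at position 143829626. The windows of Hmgcs1 (chr13:119690101-119690400) and Sc5d (chr9:42264251-42264550) do not hold the leading start either. Hmgcs1-201 starts at position 119690446 and Sc5d-202 at position 42264200. GC boxes were in windows of 10 of 11 enzymes, against 70.5%, and the median GC content was 61.8%, against 61% for the expressed genes. TCACCCCAC was found for Hmgcs1 alone among the 24 members, against 0.614% of all genes, and the looser form added no member (1.44% of all genes).

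Of the efflux genes with windows, Mylip held CCAAT and Abca1 and Apoe did not. The repeat for liver X receptors was matched within 2 mismatches in a window of Dhcr7 alone among the 24 members, against 3.47% of all genes. It is the same window that holds the pair of CCAAT boxes of Dhcr7. The search could not find a repeat with more mismatches. Abca1 and the other members without a match may therefore still hold such a site. The 250 bases before the start site are printed for 2 synthesis enzymes and 2 efflux genes, so that the windows with and without the boxes can be compared. Hmgcs1 is shown for its sterol element, Mvd for its pair of boxes, and Abca1 and Apoe for their level. They lie at chr13:119690101-119690350 (plus strand), chr8:122443423-122443672, chr4:53159896-53160145 and chr7:19699189-19699438 (minus strand), and overlap no exon of GENCODE M21. Each is printed 5′ to 3′ on the gene's strand. Capitals mark CCAAT, which reads ATTGG when on the other strand, and in Hmgcs1 also TCACCCCAC.
Hmgcs1: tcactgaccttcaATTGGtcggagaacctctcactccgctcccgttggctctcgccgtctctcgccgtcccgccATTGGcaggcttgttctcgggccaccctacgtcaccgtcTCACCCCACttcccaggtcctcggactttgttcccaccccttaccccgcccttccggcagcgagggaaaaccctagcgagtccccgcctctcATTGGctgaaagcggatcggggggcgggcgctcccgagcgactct
Mvd: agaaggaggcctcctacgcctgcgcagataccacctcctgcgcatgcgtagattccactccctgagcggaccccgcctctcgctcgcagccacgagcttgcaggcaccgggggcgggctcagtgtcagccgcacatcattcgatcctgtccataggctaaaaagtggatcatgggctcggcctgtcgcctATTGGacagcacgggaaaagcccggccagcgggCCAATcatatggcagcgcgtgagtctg
Abca1: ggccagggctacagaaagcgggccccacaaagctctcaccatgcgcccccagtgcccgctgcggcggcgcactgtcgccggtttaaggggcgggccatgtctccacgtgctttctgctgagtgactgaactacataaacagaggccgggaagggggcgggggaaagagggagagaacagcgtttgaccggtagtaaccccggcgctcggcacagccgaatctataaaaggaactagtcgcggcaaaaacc
Apoe: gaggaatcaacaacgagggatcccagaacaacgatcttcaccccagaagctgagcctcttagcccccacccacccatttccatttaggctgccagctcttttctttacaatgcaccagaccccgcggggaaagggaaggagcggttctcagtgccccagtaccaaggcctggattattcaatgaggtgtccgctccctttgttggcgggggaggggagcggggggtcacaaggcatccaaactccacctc
In Hmgcs1 the sterol element is centred 133 bases before the RefSeq start site, between boxes centred at 174 and 43 bases before it. The leading transcript Hmgcs1-201 starts further on, at position 119690446. In Mvd the boxes are centred 58 and 25 bases before the start. The Abca1 and Apoe stretches hold no capitals. The Apoe stretch lies next to the start of the transcript Apoe-206 (position 19699188), whereas the leading transcript Apoe-209 starts at position 19699008.

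**Figure D4:**
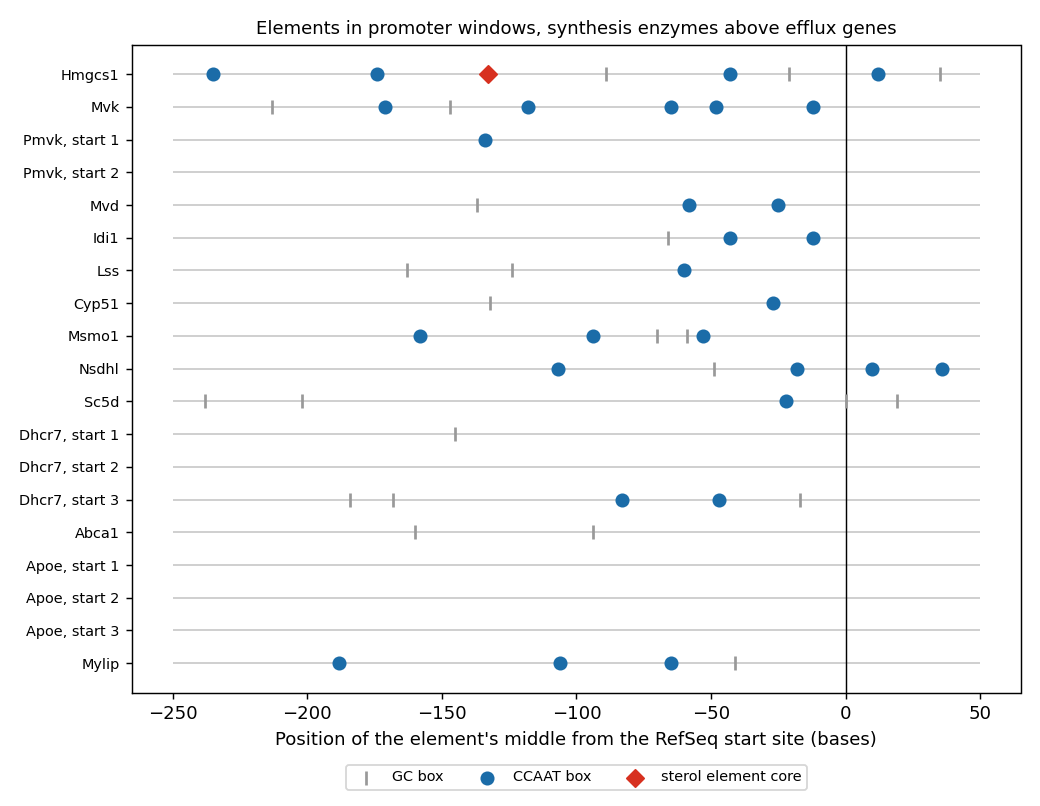
Position of each matched element's middle, in bases from the RefSeq start site (horizontal axis), in the windows of synthesis enzymes (above) and efflux genes (below); each line is 1 window of 300 bases. Every synthesis enzyme shown has a CCAAT box in at least 1 window, Abca1 and Apoe have none, and the sterol element core stands in Hmgcs1 alone.

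Of the nuclear receptors, Nr1h3, which encodes liver X receptor alpha, was the most variable. It had 25.2, 27.4 and 40.6 TPM, and 57.1, 81.5 and 88.5 CPM in replicates 1, 2 and 3. Replicate 1 lay below the other two, with a ratio of 1.55. Nr1h2, which encodes the widely expressed liver X receptor beta, had 20.0, 14.9 and 22.0 TPM and an even 45.9, 46.6 and 50.2 CPM. Nr1h3 was above Nr1h2 in 3 of 3 replicates, by 0.32, 0.83 and 0.86 on the log2(TPM + 1) scale (Nr1h2 minus Nr1h3 had a mean of -0.67 ± 0.30 SD, exact sign-flip permutation p = 0.25, adjusted 0.292). Pparg, the receptor for fatty acid ligands that is tied to lipid uptake, had 7.19, 5.30 and 6.60 TPM, and 18.2, 17.3 and 16.5 CPM (adjusted p = 0.141 in the heterogeneity test).

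The transcripts of these receptors were divided. Nr1h2 was the most divided of the 29 genes, with 40.8 ± 1.92% of its TPM on Nr1h2-201 (SD, n = 3). Nr1h3-201, the leading transcript, held 60.6 ± 3.94% of the gene's TPM (SD, n = 3). Nr1h3-202 held 20.9 ± 2.83%, Nr1h3-204 9.39 ± 0.99% and the retained-intron transcript Nr1h3-208 6.34 ± 1.68%. The first 3 of these share a coding length of 1335 bases. Pparg-202 and Pparg-204, which both code for the shorter protein of 475 codons, held 60.6 ± 10.3% and 32.3 ± 7.70%. In the kallisto-layout table the same transcripts held 78.3 ± 13.1% and 7.30 ± 6.22%, so the split between them depended on the table. Pparg-206 was listed at 0% in the first table and held 5.69 ± 2.27% in the second. Pparg-201 starts at chr6 position 115422066 and adds 90 coding bases of its own, the PPARG2 type known from fat cells. It was listed at 0, 19.1 and 0% in replicates 1, 2 and 3 of the RSEM-layout table and at 5.10, 7.36 and 4.04% in the other. Its presence rests on 159.92 reads of 1 replicate in the first table. The start of Pparg-201 is shown, with its own bases in lower case and the first bases shared with Pparg-202 in capitals.
Pparg-201: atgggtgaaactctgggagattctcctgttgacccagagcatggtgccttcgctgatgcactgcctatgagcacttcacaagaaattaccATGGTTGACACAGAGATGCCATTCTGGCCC

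Apoe was the highest of the 29 genes, and Lpl, Abcg1 and Abca1 followed it and the ester enzyme gene Soat1. Apoe (chr7:19696109-19699188), which encodes an apolipoprotein that macrophages secrete, had 846, 1247 and 1183 TPM (mean 1092 ± 215 SD) and ranked 21 among the 9059 expressed protein-coding genes. In CPM it had 985, 1989 and 1382, so that replicate 2 had 2.02 times the level of replicate 1. Lpl, the lipoprotein lipase, had 173, 117 and 131 TPM. Its 952, 854 and 695 CPM were highest in replicate 1 and lowest in replicate 3, the reverse of Nr1h3. Apoe lay above Lpl in 3 of 3 replicates, by 2.95 ± 0.59 (SD) in log2(TPM + 1) units (two-sided exact sign-flip permutation p = 0.25, adjusted 0.292).

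The pumps Abca1 and Abcg1, which load lipid-poor apolipoprotein and mature particles respectively, were close in level but differed in their order over the replicates. Abca1 (chr4:53030787-53159895) had 86.1, 58.3 and 68.0 TPM, and 1212, 1092 and 929 CPM. Abcg1 (chr17:31057675-31117988) had 65.7, 63.9 and 91.5 TPM, and 517, 667 and 687 CPM. Abca1 was highest and Abcg1 lowest in replicate 1. The difference, Abca1 minus Abcg1 on the log2(TPM + 1) scale, was 0.38, -0.13 and -0.42 (mean -0.06 ± 0.41 SD, exact sign-flip permutation p = 0.75). Its sign turned without replicate 3, when the mean was 0.127. Abca1 exceeded the receptor gene Nr1h3 by 1.18 ± 0.51 (SD, 3 of 3 replicates, exact sign-flip permutation p = 0.25, adjusted 0.292). Mylip, a liver X receptor target that marks lipoprotein receptors for breakdown, was lower at 24.7, 13.6 and 24.6 TPM. It had 99.6, 72.3 and 95.4 CPM and was lowest in replicate 2. So were 16 of the 29 members, Insig1 among them, beside 4278 of 13827 tested genes.

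Among these genes the leading transcript of Abca1, Abcg1, Lpl and Mylip held over 90% of TPM in the RSEM-layout table, from 98.3 to 99.4%. Apoe was divided. Apoe-209 held 66.4 ± 2.01%, Apoe-206, with the same coding length of 933 bases, 11.1 ± 1.33%, and Apoe-202, a processed transcript with no annotated coding sequence, 21.8 ± 2.79% (SD, n = 3). The values of the kallisto-layout table were 65.0, 8.40 and 26.2%.

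Soat1 was among the highest of the 29 genes and Ch25h was the lowest. Soat1 (chr1:156424525-156474331), which esterifies cholesterol for storage, had 171, 123 and 192 TPM, and 526, 464 and 494 CPM, a ratio of 1.13. It ranked 304 among expressed protein-coding genes. Ch25h (chr19:34473778-34475164), an interferon-inducible gene without introns whose enzyme makes 25-hydroxycholesterol, had 0.47, 0.16 and 1.64 TPM from 39, 19 and 135.99 counts. In CPM it had 0.778, 0.350 and 2.65, the widest ratio of the 29 at 7.58, with replicate 3 high. The 10 interferon-response genes checked were all highest in replicate 3 as well, beside 39.5% of the expressed protein-coding genes. Among the 10, Cxcl10 had 662, 576 and 1856 CPM and Rsad2 had 3400, 3476 and 6955 CPM. Their part in the level of Ch25h was not tested. Ch25h minus Soat1 was -6.60 ± 0.36 (SD) on the log2(TPM + 1) scale, lower in 3 of 3 replicates (exact sign-flip permutation p = 0.25, adjusted 0.292).

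Soat1 also shows how reads and TPM can part between transcripts. Soat1-201 held 51.7 ± 3.17% of TPM and 69.4% of reads. The 366-base Soat1-206, annotated with 97 coding bases, held 37.1 ± 3.14% of TPM but 2.93% of reads. Soat1-207, of 8371 bases, held 6.60 ± 1.27% of TPM and 26.5% of reads. Soat1-201 and Soat1-207 share a coding length of 1620 bases, so by reads nearly all of the gene lay on transcripts of the full enzyme.

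Across all members the leading transcript was the same in both transcript tables for 29 of 29 genes, and it was annotated as protein-coding in each. In the RSEM-layout table it held at least 90% of TPM in 14 of 29 genes: Scap-201, Insig1-201, Pmvk-201, Mvd-201, Idi1-201, Sqle-201, Cyp51-201, Nsdhl-201, Dhcr7-202, Abca1-201, Abcg1-201, Lpl-201, Mylip-201 and Ch25h-201, the last being the only transcript of its gene. In 5 genes it held from 76.2 to 85.3% (Srebf2-201, Fdps-201, Fdft1-201, Lss-201 and Sc5d-202). It held under 75% in 10 of 29, among them Insig2-201 with 72.0 ± 6.07% and Mvk-201 with 70.7 ± 7.02%. In the kallisto-layout table the leading share was at least 90% in 12 of 29 genes and under 75% in 8 of 29. Among the enzymes, Hmgcs1 was divided between Hmgcs1-201 (62.4 ± 5.40%) and Hmgcs1-202 (35.0 ± 5.43%), which share a coding length of 1560 bases. In the kallisto-layout table these held 79.3 ± 3.50% and 16.5 ± 3.29%, with no overlap between the tables for Hmgcs1-202. Msmo1-201 held 64.0 ± 2.09%, and the processed transcript Msmo1-206 held 35.1 ± 2.48%, or 20.1 ± 2.69% in the kallisto-layout table. Srebf2-205, a retained-intron transcript, held 21.5, 18.2 and 16.7% of Srebf2 in replicates 1, 2 and 3. Over the 29 genes together, retained-intron transcripts held 0.727, 0.497 and 0.482% of reads.

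Among 36 other genes of cholesterol handling, 31 had at least 1 TPM in every replicate, against 41.1% of protein-coding genes. Of 32 tested, 27 varied between replicates beyond counting error, beside 70% of all tested genes. The highest served lysosomes and droplets. Npc2, which carries cholesterol out of the lysosome, had 284, 225 and 411 TPM. Plin2, a coat protein of lipid droplets, had 181, 133 and 242 TPM, and Lipa, the lysosomal acid lipase, 222, 125 and 200 TPM. The oxysterol hydroxylases Cyp7b1 and Cyp46a1 were listed at 0 counts in the 3 libraries, and Abcg4 and Vldlr at 0 to 10 counts. Soat2, the second cholesterol ester enzyme, had 1.09, 0.40 and 1.14 TPM. It alone passed the heterogeneity test with a ratio of at least 2 (3.07, 1.49 and 3.12 CPM, ratio 2.09). The 14 further genes of synthesis and sterol control had a median of 7.03 ± 1.45 TPM (SD, n = 3), and 7 of 14 were highest in replicate 1, beside 34.4% of all tested genes and 25.9% of the expressed protein-coding ones.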

How the data were processed

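Cytosolic RNA was sequenced in 3 libraries of 1 group, per the labels. The authors deposited, per library, a gene table and 2 transcript tables, each with an expected count (an estimate of reads, not normalised) and a TPM value over all indexed features. Assembly mm10 and GENCODE M21 are named in notes deposited with the files. Layouts are those of RSEM and kallisto, but no tool, version or strand setting is named in them.

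All 29 symbols matched. Expected counts were rounded for the heterogeneity test (chi-square with 2 degrees of freedom, mean count 10 or more, Benjamini-Hochberg adjustment), with TMM library sizes from edgeR 4.0.16. DESeq2 1.42.0 gave alternative size factors. Python 3.11.15 with scipy 1.17.1 ran the other steps. Of these only the heterogeneity test was tried on simulated counts. Pair differences used log2(TPM + 1) within a library and an exact sign-flip permutation test. Entries that name no gene held 0.0785, 0.0521 and 0.0251% of counts in replicates 1, 2 and 3 and were left out. The posterior SD of a member's count, deposited by the authors, was at most 0.711% of it (Idi1).

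The rule for the members names genes and uses no measured value, but members, lists and tests were chosen with earlier results of these data known. All 29 members are named. Of 36 other pathway genes, the 3 highest, the lowest and any past the test with a ratio of at least 2 are named, and Abcg4 and Vldlr were added after their values were seen. Transcripts are named when leading or, for Srebf1, Pparg, Nr1h3 and Soat1, at a mean share of at least 5% in either table, and the further ones of Apoe, Hmgcs1, Msmo1 and Srebf2 were added after their values were seen, as was the printing of the Mvd promoter. Promoters came from RefSeq. Alternatives covered library scaling, count and TPM minimums, the pseudocount, the second transcript table and leaving out each replicate.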

Additional observations from a re-analysis of the deposited data

How the results depend on the processing

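Precision is limited by 3 replicates of 1 group. No paired comparison between conditions was possible because there is only 1 group. The number of expressed members was 23 at a TPM minimum of 5 and 28 or 29 under the other alternatives. The members' mean TPM was lower in the kallisto-layout table for 29 of 29 genes. In that table the medians were 7.77 TPM for sterol sensing genes, 4.07 for mevalonate enzymes, 4.25 for sterol branch enzymes and 36.3 for efflux and lipoprotein genes, and in TPM rescaled to protein-coding genes they were 49.4, 31.0, 30.3 and 250.2. The cause of the shift between tables was not tested, and the rescaling raises all genes by construction. The number of members varying between replicates was 21 to 25 under the other settings, beside 45.2 to 76.9% of all tested genes. It was 5 with a ratio of at least 1.5 in addition (23.6% of all tested genes), which asks more by construction. That count of 5 became 2 to 3 when a replicate was left out, where the share of all tested genes fell too, to 13.3 to 16%. Plain totals exchanged Nr1h3 for Cyp51 (24.8% of all tested genes). With plain totals and with rescaled TPM, synthesis enzymes highest in replicate 3 went from 2 to 0 and those lowest in replicate 1 from 1 to 0. The share of all tested genes fell too, from 34.2 to 22.6 and 24.1% for the first and from 32.2 to 19 and 20.6% for the second. The replicate in which a member was highest was the same under 4 scalings for 20 of 29 members. It changed for Srebf1, Srebf2, Scap, Mvk, Pmvk, Fdps, Nr1h2, Abcg1 and Soat1. Abca1 minus Abcg1 ranged from -0.276 to 0.127 when a replicate was left out, and was positive only without replicate 3. The signs of the other 6 pair differences held under each alternative. Leading transcript shares moved by more than 1 SD for 18 of 29 genes in the kallisto-layout table.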
